A study of Caenorhabditis elegans with 12 samples.

Results

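The genes examined were a set of chaperone genes that are widely used as readouts of protein folding stress in *Caenorhabditis elegans*: the small heat shock genes *hsp-16.1*, *hsp-16.2*, *hsp-16.41*, *hsp-16.48* and *hsp-12.6*, the cytosolic Hsp70 genes *hsp-70* and *hsp-1*, the endoplasmic reticulum (ER) Hsp70 genes *hsp-3* and *hsp-4*, and the mitochondrial Hsp70 gene *hsp-6*. They were found in the expression table by matching gene identifiers to symbols. The 10 symbols matched 12 of 46761 gene identifiers, because *hsp-16.1* and *hsp-16.48* each stood for 2 identifiers. RefSeq names the additional copies *hsp-16.11* and *hsp-16.49*, and these names are used here. RNA was measured in whole young adult hermaphrodites of 4 genotypes, *lin-29(n836)*, *mab-10(tm2497)*, *ddx-23(n5705)* and wild-type, with 3 libraries for each genotype from animals picked by hand (200 in total by the labels). All 4 strains carried the transgene *maIs105 [col-19::gfp]*, so wild-type here means a strain with that reporter. The allele *ddx-23(n5705)* names a missense change in an RNA helicase. The study reports another missense change of the same gene in that strain, and attributes the visible defects to the named one. *lin-29* codes for a transcription factor of the EGR family and *mab-10* for a NAB protein that works with it.

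Cells meet misfolded proteins with compartment-specific programmes. In the cytosol the transcription factor HSF-1 induces small heat shock proteins, which hold unfolded proteins, and Hsp70 proteins, which refold them. In the ER lumen the sensors IRE-1, PEK-1 and ATF-6 drive the unfolded protein response, whose best known target in the worm is *hsp-4*, and in mitochondria ATFS-1 drives *hsp-6*. The *hsp-16* genes and *hsp-70* are nearly silent in unstressed worms and are induced strongly by heat, whereas *hsp-1*, *hsp-3* and *hsp-6* are expressed constitutively.

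Values were fragments per kilobase of transcript, scaled to library size (FPKM), and tests used log2(FPKM + 1), which understates the change of genes near 0. Of the 46761 identifiers, 14199 reached an FPKM of 1 in at least 3 libraries and were tested, including all 12 chaperone genes. The library numbers fell into an earlier series (wild-type 1 and 2, *lin-29* 1, *mab-10* 1 and all *ddx-23* libraries) and a later series (wild-type 3, *lin-29* 2 and 3, *mab-10* 2 and 3). This division was made with the values in view, so p-values of fits that use it are descriptions and not tests. What the numbers record beyond the order of the libraries is not given in the sources used here. The mutated genes' own RNA was not lower in the mutants: *lin-29* RNA was 3.27, 2.85 and 3.25 log2(FPKM + 1) in *lin-29* mutants against 1.90, 2.0 and 2.13 in wild-type, so the RNA level did not check these labels.

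The 6 *hsp-16* genes lie in a pair of clusters on chromosome V (WBcel235). *hsp-16.2* (V:1804334-1804957, minus strand) and *hsp-16.41* (V:1805178-1805875, plus strand) are divergently transcribed with 220 bases between them. The other cluster holds *hsp-16.1* (V:9087293-9087782, minus), *hsp-16.48* (V:9088131-9088617, plus), *hsp-16.49* (V:9089280-9089766, minus) and *hsp-16.11* (V:9090077-9090604, plus), an inverted duplication of one divergent pair with 348 and 310 bases between the partners. Each gene has 2 exons.

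**Figure D1:**
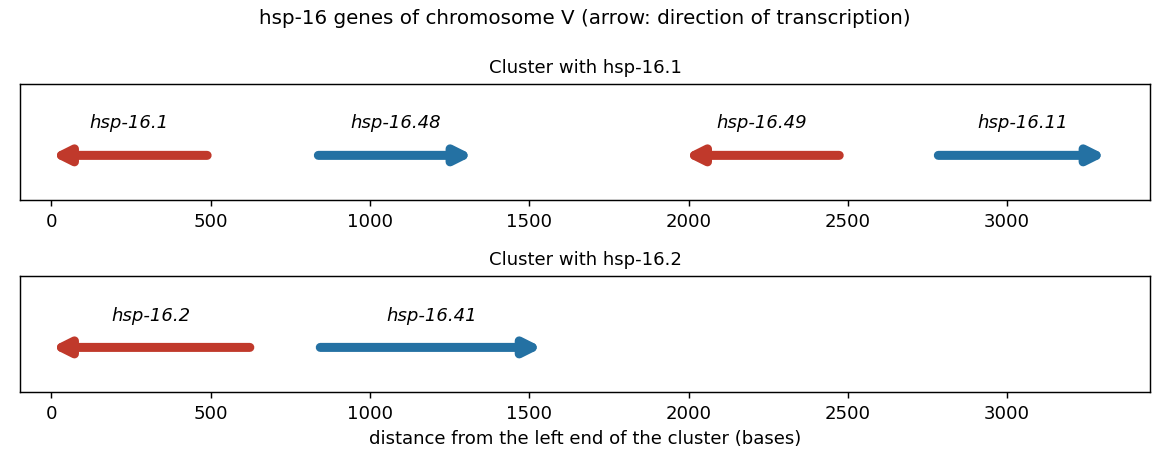
Map of the 6 *hsp-16* genes on chromosome V, with distance in bases from the left end of each cluster on the x axis and arrows in the direction of transcription. In both clusters the genes stand as divergent pairs, with 220, 348 and 310 bases between partners.

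The duplicated copies could not be measured apart. *hsp-16.49* and *hsp-16.48* had identical FPKM in 10 of 12 libraries, a 50% share each, and in the remaining libraries nearly all of the sum was assigned to *hsp-16.49* (100% in *lin-29* 1 and 99.2% in *mab-10* 2). *hsp-16.11* took between 68.5% and 100% of the sum of *hsp-16.1* and *hsp-16.11*. *hsp-16.1* was listed at 0 in 1 *lin-29* library, 2 *ddx-23* libraries and 1 wild-type library, and its residual SD of 2.93 log2 units, like the 3.01 of *hsp-16.48*, exceeded that of nearly all tested genes. The single-copy pair *hsp-16.2* and *hsp-16.41* and the summed copies are therefore the values to read, and *hsp-16.1* and *hsp-16.48* on their own are uncertain.

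*hsp-16.2*, a small heat shock gene used as a reporter of heat stress, had an FPKM of 39.0, 96.3 and 213 in *lin-29* mutants, 213, 132 and 132 in *mab-10* mutants, 28, 12.8 and 11.1 in *ddx-23* mutants, and 32.8, 20.2 and 111 in wild-type. Its divergent partner *hsp-16.41* had an FPKM of 45.9, 91.3 and 183 in *lin-29* mutants, 304, 157 and 162 in *mab-10* mutants, 20.8, 7.82 and 10.9 in *ddx-23* mutants, and 36.3, 29.4 and 89.4 in wild-type. All *mab-10* libraries lay above all wild-type libraries for both genes, and all *ddx-23* libraries lay below all wild-type libraries for *hsp-16.41*. The *lin-29* libraries overlapped wild-type for both, and wild-type 3 was the highest wild-type library for 11 of the 12 chaperone genes. The pair moved closely together: *hsp-16.2* minus *hsp-16.41* stayed between −0.52 and 0.64 on the log2(FPKM + 1) scale in every library.

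In the other cluster, both pairs of copies were higher in each library of *lin-29* or *mab-10* mutants than in any *ddx-23* library, as in 27.2% and 20.8% of tested genes for the same order of *lin-29* and of *mab-10* against *ddx-23*. The sum of *hsp-16.1* and *hsp-16.11* was 324, 576 and 1118 FPKM in *lin-29* mutants, 1118, 408 and 461 in *mab-10* mutants, 154, 81.9 and 99.8 in *ddx-23* mutants, and 74.9, 61.4 and 630 in wild-type. The sum of *hsp-16.48* and *hsp-16.49* was 201, 320 and 559 FPKM in *lin-29* mutants, 737, 237 and 249 in *mab-10* mutants, 118, 59.2 and 56.2 in *ddx-23* mutants, and 66.4, 47.9 and 357 in wild-type. Wild-type 3 had at least the level of 1 library of each of *lin-29* and *mab-10* for both sums, so neither group separated from wild-type.

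**Figure D2:**
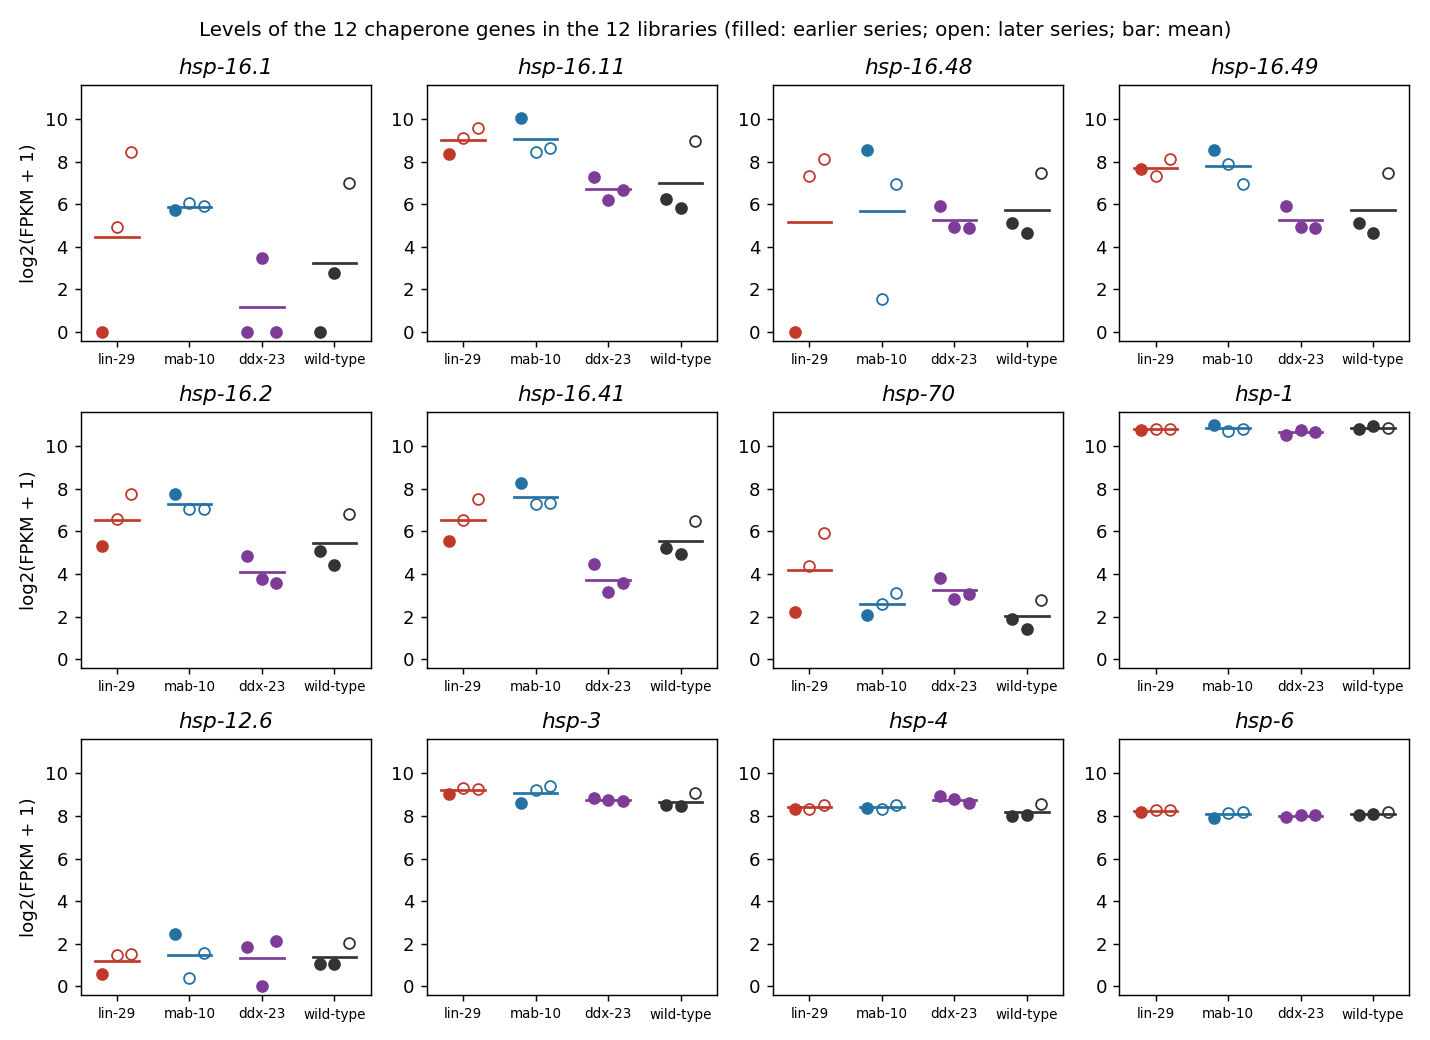
Levels of the 12 chaperone genes as log2(FPKM + 1), with the 3 libraries of each genotype as points (filled for the earlier series, open for the later) and bars at the group means. The *hsp-16* genes and *hsp-70* varied over several log2 units, with wild-type 3 above the other wild-type libraries, while *hsp-1* stayed between 10.54 and 10.97.

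Against wild-type, no *hsp-16* gene passed the test in any mutant (limma, Benjamini-Hochberg adjustment over all tested genes, threshold 0.05). In *lin-29* mutants 0 of the 12 chaperone genes were called higher and 0 lower, where 16.3% and 2.73% of all tested genes were called. No share of all tested genes is given for an unadjusted p under 0.05. Counts at that threshold therefore cannot be read as particular to the chaperone genes. In *lin-29* mutants 4 of the 12 reached it. These were *hsp-16.49* (difference 1.97 ± 0.65 SE in log2(FPKM + 1), adjusted p = 0.0582), *hsp-70*, *hsp-16.11* (1.99 ± 0.74, adjusted p = 0.0856) and *hsp-3*. The summed copies differed by 1.65 for *hsp-16.48* and *hsp-16.49* (limma adjusted p = 0.132) and by 2.05 for *hsp-16.1* and *hsp-16.11* (adjusted p = 0.0972). In *mab-10* mutants 0 were called higher and 0 lower, where 1.04% and 0.232% of all tested genes were called by the adjusted p. Again with no share of all tested genes beside them, 4 had an unadjusted p under 0.05. These 4 were all *hsp-16* genes: *hsp-16.41* differed by 2.09 ± 0.54 (adjusted p = 0.102), *hsp-16.2* by 1.85 ± 0.67 (adjusted p = 0.170), *hsp-16.11* by 2.03 ± 0.74 and *hsp-16.49* by 2.05 ± 0.65. Here the summed copies differed by 1.74 for *hsp-16.48* and *hsp-16.49* (limma adjusted p = 0.208) and by 2.05 for *hsp-16.1* and *hsp-16.11* (adjusted p = 0.188). In *ddx-23* mutants *hsp-16.41* differed by −1.83 ± 0.54 (adjusted p = 0.0654) and *hsp-16.2* by −1.35 ± 0.67 (adjusted p = 0.256). As groups of libraries that did not overlap with wild-type, *hsp-16.2* and *hsp-16.41* in *mab-10* mutants stood among the 14.8% of tested genes that lay wholly above, and *hsp-16.41* in *ddx-23* mutants among the 9.35% that lay wholly below. No chaperone gene lay wholly below wild-type in *mab-10* mutants, as 3.23% of tested genes did.

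Whether these genes passed the test rested on single libraries, most often on wild-type 3. Without it, 6 of the 12 genes were called higher in *lin-29* mutants (*hsp-16.2*, *hsp-16.11*, *hsp-16.49*, *hsp-70*, *hsp-3* and *hsp-4*) and 5 in *mab-10* mutants (*hsp-16.2*, *hsp-16.41*, *hsp-16.11*, *hsp-16.49* and *hsp-4*), with *hsp-16.41* at 2.56 in *mab-10* mutants (limma, adjusted p = 0.0180). Calls over the whole table rose as well: without wild-type 3, 25.4% of all tested genes were called higher in *lin-29* mutants and 13.1% in *mab-10* mutants. The *hsp-16.41* difference of *ddx-23* mutants was called without *lin-29* 1 (adjusted p = 0.0424) or *lin-29* 3 (adjusted p = 0.0476), and not without wild-type 3. Wild-type 3 was the only wild-type library of the later series. Within the earlier series the *mab-10* difference of *hsp-16.41* was 3.18 (1 *mab-10* library against 2 wild-type libraries), and within the later series it was 0.83 (2 libraries against 1, adjusted p = 0.337). The *lin-29* difference of *hsp-16.41* was 0.48 and 0.53 in the earlier and the later series. The part of the library series in these differences cannot be told apart further with 1 library in a cell.

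The *hsp-16* genes did differ between mutants. In *lin-29* mutants 4 of the 12 chaperone genes were higher than in *ddx-23* mutants and 0 lower, where 14.2% and 6.99% of tested genes were, and in *mab-10* mutants 3 were higher than in *ddx-23* mutants and 0 lower, where 3.19% and 4.89% of tested genes were. All were *hsp-16* genes and all were past 2-fold. *hsp-16.41* was 2.81 ± 0.54 log2 units higher in *lin-29* than in *ddx-23* mutants (95% interval 1.61 to 4.01, limma adjusted p = 0.00472), and 3.91 ± 0.54 higher in *mab-10* than in *ddx-23* mutants (2.71 to 5.11, adjusted p = 0.00196), a 15.1-fold difference. *hsp-16.2* was 2.48 ± 0.67 higher in *lin-29* than in *ddx-23* mutants (adjusted p = 0.0238) and 3.20 ± 0.67 higher in *mab-10* than in *ddx-23* mutants (adjusted p = 0.0174). In each of these 4 contrasts every library of the first mutant lay above every *ddx-23* library, which held for the 27.2% and 20.8% of tested genes given above.

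The *hsp-16.41* differences from *ddx-23* mutants kept their call under all 24 alternatives that could be fitted, including the model with the library series (2.37 for *lin-29*, limma adjusted p = 0.0294, and 3.47 for *mab-10*, adjusted p = 0.0105). Those of *hsp-16.2* were not called with the series in the model, nor, for *lin-29*, without *lin-29* 2 or 3 or *ddx-23* 2 or 3 (limma adjusted p 0.0716 to 0.101) or within the earlier series (1.24, adjusted p = 0.159), nor, for *mab-10*, without *mab-10* 3 or *ddx-23* 2 or 3 (adjusted p 0.0556 to 0.0745). *hsp-16.49* was called in both contrasts (2.47 ± 0.65, adjusted p = 0.0215, and 2.56 ± 0.65, adjusted p = 0.0379), but its sum with *hsp-16.48* was not (2.16, adjusted p = 0.0534, and 2.25, adjusted p = 0.0776). When single libraries were left out, the *lin-29* call of *hsp-16.49* was lost without *lin-29* 3 or *ddx-23* 2 or 3 (adjusted p 0.0741 to 0.0838). Of those fits, its *mab-10* call held only without *lin-29* 1 or any 1 wild-type library (otherwise adjusted p 0.0515 to 0.135). Both *hsp-16.49* calls were lost with the series in the model (limma adjusted p = 0.101 and 0.117). *hsp-16.11* was called for *lin-29* minus *ddx-23* (2.30 ± 0.74, adjusted p = 0.0483), as was its sum with *hsp-16.1* (2.45, adjusted p = 0.0493). With 1 library left out, the *hsp-16.11* call held only without *lin-29* 1, *mab-10* 1, wild-type 2 or wild-type 3 (otherwise adjusted p 0.0542 to 0.161). With the series in the model it was lost (limma adjusted p = 0.202). Between *lin-29* and *mab-10* mutants 0 of the 12 genes were called in either direction, where 7.28% of tested genes were higher in *lin-29* and 2.13% lower, and 0 had an unadjusted p under 0.05. Leaving out 1 library also added calls: without *lin-29* 1, *hsp-70* was 2.55 higher in *lin-29* than in *mab-10* mutants (adjusted p = 0.0126) and 1.90 higher than in *ddx-23* mutants (adjusted p = 0.0249). Without wild-type 3, *hsp-4* was lower in *lin-29* (−0.36) as in *mab-10* mutants (−0.35) than in *ddx-23* mutants. Between *lin-29* and *mab-10* mutants the intervals were wide in the main fit: *hsp-16.41*, at −1.10 for *lin-29* minus *mab-10*, had a 95% interval of −2.30 to 0.10.

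**Figure D3:**
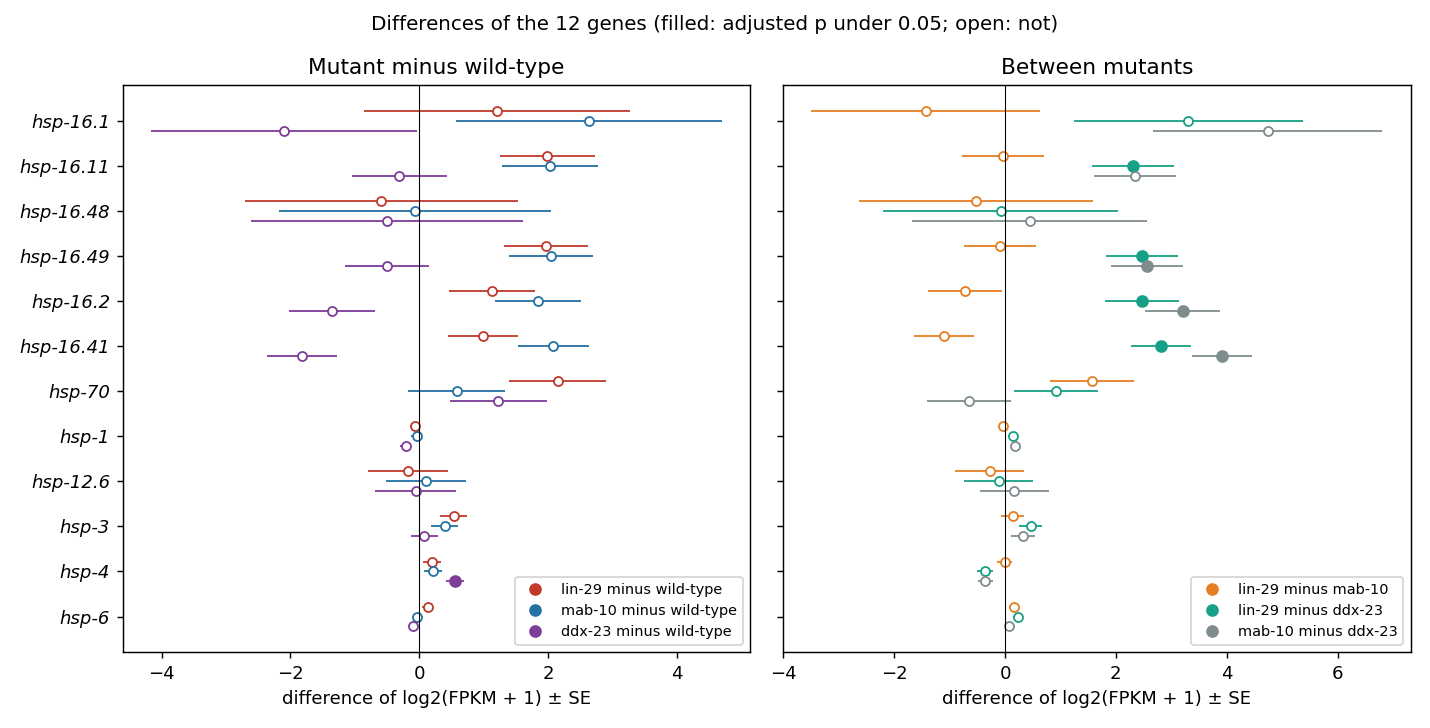
Differences of the 12 chaperone genes in log2(FPKM + 1), with bars of 1 SE, for each mutant minus wild-type (left) and between mutants (right). Filled points have an adjusted p under 0.05: *hsp-4* in *ddx-23* mutants, and *hsp-16* genes in comparisons with *ddx-23* mutants, 4 for *lin-29* and 3 for *mab-10*.

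*hsp-70* (I:9320325-9322519, minus strand) encodes the heat-inducible cytosolic Hsp70. It overlaps *uggt-2* on the opposite strand, and whether the libraries kept strand is not given in the sources used here, but *uggt-2* was at most 0.45 log2(FPKM + 1) in any library. *hsp-70* had an FPKM of 3.62, 19.6 and 59.7 in *lin-29* mutants, 3.22, 5.10 and 7.57 in *mab-10* mutants, 13.3, 6.19 and 7.28 in *ddx-23* mutants, and 2.67, 1.63 and 5.84 in wild-type. All *ddx-23* libraries lay above all wild-type libraries, as in 24.1% of tested genes, while *lin-29* and *mab-10* libraries overlapped wild-type. The *lin-29* difference was 2.15 ± 0.75 (limma, adjusted p = 0.0707), that of *mab-10* mutants 0.58 ± 0.75 (adjusted p = 0.681) and that of *ddx-23* mutants 1.23 ± 0.75 (adjusted p = 0.371). For *hsp-70*, later libraries lay 1.62 ± 0.45 log2 units above earlier ones across genotypes. The series were divided with the values in view, so no p is given for this. With the series in the model the *ddx-23* difference was 1.77 (adjusted p = 0.0420), within the earlier series it was 1.61 (adjusted p = 0.0142), and the *lin-29* difference with the series in the model was 1.61 (adjusted p = 0.0585). The *lin-29* difference depended on which libraries were used: it was 3.13 and called without *lin-29* 1 (adjusted p = 0.00293), 2.53 and called without wild-type 3 (adjusted p = 0.0462), and 1.27 without *lin-29* 3 (adjusted p = 0.246). Within the earlier series it was 0.57 (adjusted p = 0.372) and within the later series 2.37 (adjusted p = 0.0638).

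The level of *hsp-70* relative to *hsp-16.41* within a library was chosen after the values had been seen and is given as a description, with no test. *hsp-70* FPKM was 7.89%, 21.4% and 32.7% of *hsp-16.41* FPKM in *lin-29* mutants, 1.06%, 3.25% and 4.69% in *mab-10* mutants, 63.6%, 79.2% and 66.5% in *ddx-23* mutants, and 7.36%, 5.54% and 6.53% in wild-type. Each mutant's 3 ratios lay on one side of wild-type, *mab-10* below and *lin-29* and *ddx-23* above, and wild-type 3, which stood apart in both levels, lay between the other wild-type libraries. Relative to *hsp-16.2* the ratio was 9.29%, 20.3% and 28% in *lin-29* mutants, 1.51%, 3.87% and 5.74% in *mab-10* mutants, 47.3%, 48.4% and 65.8% in *ddx-23* mutants, and 8.14%, 8.09% and 5.25% in wild-type. Here *mab-10* 3 overlapped the wild-type range. Against *hsp-16.49* the *lin-29* and *mab-10* ratios overlapped wild-type.

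**Figure D4:**
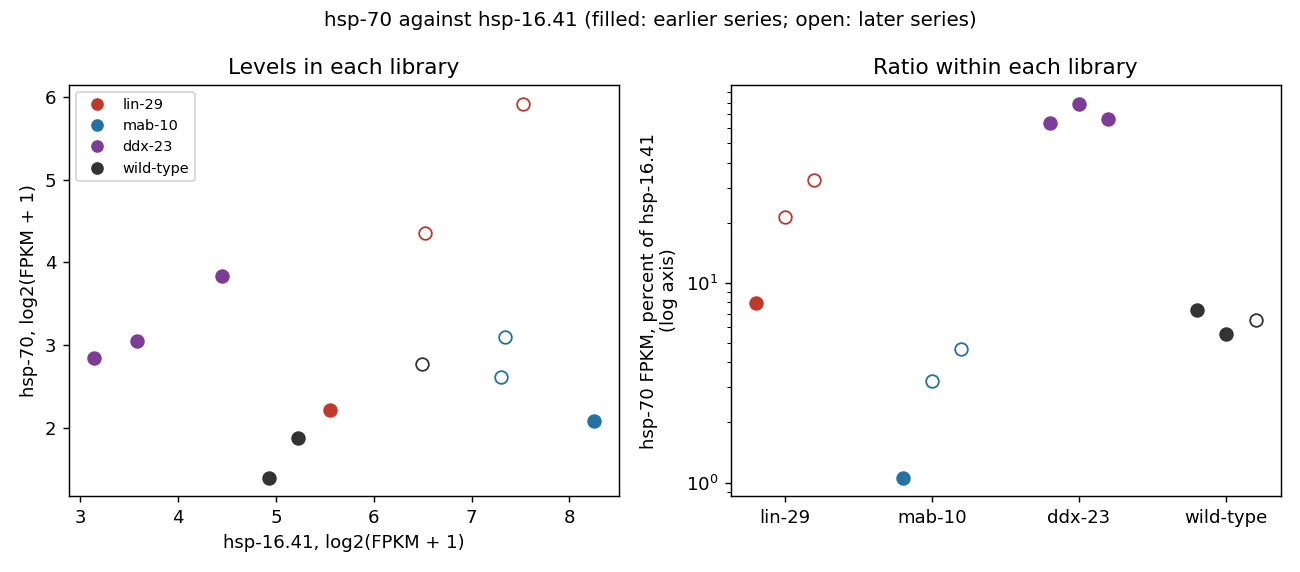
*hsp-70* against *hsp-16.41* in the 12 libraries (left, both in log2(FPKM + 1)) and the FPKM of *hsp-70* as a percent of that of *hsp-16.41* in each library (right, log axis), with filled points for the earlier series and open points for the later. The *ddx-23* ratios of 63.6% to 79.2% lie above all others, and the *mab-10* ratios of 1.06% to 4.69% lie below all others.

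*hsp-1* (IV:17278959-17281330, plus strand), the constitutive Hsc70, was the most abundant gene of the set per length. Its FPKM was 1743, 1809 and 1800 in *lin-29* mutants, 2011, 1689 and 1777 in *mab-10* mutants, 1487, 1732 and 1635 in *ddx-23* mutants, and 1817, 1943 and 1850 in wild-type. All *lin-29* and all *ddx-23* libraries lay below all wild-type libraries, as in 5.71% and 9.35% of tested genes. The differences were small and none was called: −0.07 (95% interval −0.25 to 0.11) in *lin-29* mutants, −0.04 (−0.22 to 0.14) in *mab-10* mutants and −0.21 (−0.39 to −0.03, limma adjusted p = 0.151) in *ddx-23* mutants. *hsp-12.6* (IV:9446229-9447228, minus strand), a small heat shock gene that is a target of both HSF-1 and the insulin-pathway factor DAF-16, was close to the detection filter in every group. Its FPKM was 0.51, 1.79 and 1.86 in *lin-29* mutants, 4.55, 0.30 and 1.99 in *mab-10* mutants, 2.55, 0 and 3.32 in *ddx-23* mutants, and 1.07, 1.05 and 3.07 in wild-type. All groups overlapped, and a difference was not detectable at this level.

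*hsp-4* was the only one of the 12 genes called against wild-type. *hsp-4* (II:7350112-7352645, minus strand) encodes the stress-inducible BiP of the ER. Its FPKM was 323, 323 and 370 in *lin-29* mutants, 335, 321 and 365 in *mab-10* mutants, 485, 437 and 387 in *ddx-23* mutants, and 256, 267 and 372 in wild-type. All *ddx-23* libraries lay above all wild-type libraries, as in 24.1% of tested genes, and *lin-29* and *mab-10* mutants overlapped wild-type because of wild-type 3. The *ddx-23* difference was 0.56 ± 0.14 log2 units, a 1.48-fold rise that did not reach 2-fold (95% interval 1.19 to 1.83-fold, limma adjusted p = 0.0306), and it made *hsp-4* 1 of 12 called higher and 0 lower, where 7.17% and 1.46% of tested genes were. At an unadjusted p under 0.05, for which no share of all tested genes is given, 2 genes were lower, *hsp-16.41* and *hsp-1*. The *hsp-4* difference was 0.20 ± 0.14 in *lin-29* mutants (adjusted p = 0.331) and 0.21 ± 0.14 in *mab-10* mutants (adjusted p = 0.401). The *hsp-4* call in *ddx-23* mutants was lost without *ddx-23* 1 or 2 or wild-type 1 or 2 (adjusted p 0.101 to 0.128), and within the earlier series, where all *ddx-23* libraries lie, it was 0.73 (adjusted p = 0.00299).

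*hsp-3* (X:6089028-6092124, minus strand), the second BiP gene, followed another order. Its FPKM was 527, 635 and 622 in *lin-29* mutants, 388, 591 and 681 in *mab-10* mutants, 456, 423 and 413 in *ddx-23* mutants, and 359, 347 and 544 in wild-type. It was lower in the first library of *lin-29* and *mab-10* mutants and in wild-type 1 and 2 than in the others of each group. The later series lay 0.53 ± 0.08 above the earlier one, given without a p because the series were divided with the values in view. The *lin-29* difference was 0.54 ± 0.21 (adjusted p = 0.0990), and it was called with the series in the model (0.36, adjusted p = 0.0242) and without *mab-10* 1 (adjusted p = 0.0361) or wild-type 3 (0.75, adjusted p = 0.0183). The *mab-10* and *ddx-23* differences were 0.40 ± 0.21 (0.64 without *mab-10* 1, adjusted p = 0.0473) and 0.08 ± 0.21. *hsp-6* (V:4824124-4826760, minus strand), the mitochondrial Hsp70 and the usual readout of the mitochondrial response, had an FPKM of 287, 305 and 312 in *lin-29* mutants, 242, 279 and 290 in *mab-10* mutants, 243, 266 and 261 in *ddx-23* mutants, and 260, 273 and 291 in wild-type. Its differences were 0.13 (95% interval −0.05 to 0.32), −0.03 (−0.21 to 0.16) and −0.10 (−0.28 to 0.09), none called.

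The genes fell into a variable and a steady class by their spread within genotypes. The residual SD was 1.06 log2 units for *hsp-70*, 1.05 for *hsp-16.11*, 0.95 for *hsp-16.2*, 0.93 for *hsp-16.49*, 0.87 for *hsp-12.6* and 0.77 for *hsp-16.41*, each at or above the 95.0th percentile of tested genes. It was 0.29 for *hsp-3* and 0.18 for *hsp-4*, against a median of 0.26 over all tested genes, and 0.09 for both *hsp-1* and *hsp-6*, at the 7.39th and 7.79th percentiles. Intervals were accordingly widest for the heat-inducible genes.

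Other genes of the same pathways were counted in lists. Of 28 other cytosolic heat shock genes, 1 rose and 1 fell in *lin-29* mutants, 0 were called in *mab-10* mutants, and 1 rose and 1 fell in *ddx-23* mutants, where 16.3%, 1.04% and 7.17% of all tested genes were called higher in the same order of mutants (median difference 0.16, 0.16 and 0.01, beside 0.19, 0.14 and 0.09 over all tested genes). Called lower were 2.73%, 0.232% and 1.46% of all tested genes. *F44E5.5*, a heat-inducible Hsp70 gene, was 5.53, 7.35 and 9.24 log2(FPKM + 1) in *lin-29* mutants against 3.93, 3.77 and 6.09 in wild-type, a difference of 2.78 ± 0.86 (limma adjusted p = 0.0445). Its neighbour *F44E5.4*, whose reads may be shared with it, differed by 2.84 ± 0.97 (adjusted p = 0.0649). Like *hsp-70*, both were highest in *lin-29* 3. With 1 library left out, the *F44E5.5* call held only without *lin-29* 1, *mab-10* 1 or wild-type 3 (otherwise adjusted p 0.0533 to 0.163). *daf-41*, the p23 co-chaperone of Hsp90, fell by 0.31 on the log2 scale in *lin-29* mutants and by 0.28 in *ddx-23* mutants. *hsp-43*, another small heat shock gene, rose in *ddx-23* mutants to 7.61, 7.52 and 7.39, against 5.48, 5.16 and 6.13 in wild-type (difference 1.92 ± 0.35, adjusted p = 0.00709). The regulator *hsf-1* differed by −0.01 in *lin-29* mutants, 0.17 in *mab-10* mutants and 0.07 in *ddx-23* mutants, with no call. Of 14 chaperonin and prefoldin genes, 0 were called in *lin-29* or *mab-10* mutants. In *ddx-23* mutants 2 fell, where 1.46% of all tested genes did, the chaperonin subunits *cct-1* (−0.30) and *cct-4* (−0.29). The *ddx-23* calls of *daf-41*, *cct-1* and *cct-4* were each lost without any 1 *ddx-23* library or wild-type 2, and that of *daf-41* also without wild-type 1 (limma adjusted p 0.0526 to 0.130).

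Of 25 ER stress sensors and chaperones, 7 rose and 0 fell in *lin-29* mutants, 0 were called in *mab-10* mutants, and 2 rose and 0 fell in *ddx-23* mutants, beside those same shares of 16.3%, 1.04% and 7.17% of all tested genes called higher. All 25 differences were positive in *lin-29* as in *mab-10* mutants, with medians of 0.35 and 0.24, where 67.1% and 71.8% of all tested genes were positive, and 19 were positive in *ddx-23* mutants, with a median of 0.15, where 62.8% of all tested genes were. These directions depended on the scaling: under quantile normalization 20 of the 25 were positive for *lin-29*, 23 for *mab-10* and 11 for *ddx-23*, and under median-ratio scaling 19, 18 and 13 were, in the same order. The list medians lay above those of all tested genes under both, given without a test. They were 0.15, 0.14 and −0.02 beside −0.14, −0.04 and −0.07 under quantile normalization. Under median-ratio scaling they were 0.16, 0.08 and 0.03 beside 0.03, −0.002 and −0.007. *pdi-2*, a protein disulfide isomerase that is also a subunit of the collagen prolyl hydroxylase, was 9.54, 9.92 and 9.96 log2(FPKM + 1) in *lin-29* mutants against 8.70, 8.63 and 9.21 in wild-type (difference 0.96 ± 0.18, limma adjusted p = 0.00438). The ER co-chaperone *dnj-27* (0.82), calreticulin *crt-1* (0.71) and the Hsp70-family gene *T14G8.3* (0.60) rose as well. In *ddx-23* mutants the choline kinase gene *ckb-2* rose by 2.04 ± 0.42 and *dnj-20* by 0.42 ± 0.09. *ckb-2* was 6.67, 6.69 and 6.50 log2(FPKM + 1) in *ddx-23* mutants against 4.04, 4.02 and 5.68 in wild-type. Without wild-type 3, 15 of the 25 ER genes were called higher in *lin-29* mutants, 9 in *mab-10* mutants and 4 in *ddx-23* mutants, where 25.4%, 13.1% and 11.5% of all tested genes were. The calls of *dnj-27* and *crt-1* were lost without *lin-29* 2 or 3 or wild-type 1 or 2, that of *dnj-27* also without *mab-10* 2 or any 1 *ddx-23* library (limma adjusted p 0.0613 to 0.172). Those of *ckb-2* and *dnj-20* were lost without *ddx-23* 2 or wild-type 2, that of *ckb-2* also without *ddx-23* 1 or wild-type 1 (adjusted p 0.0507 to 0.0642). Under quantile normalization the median of all tested genes was −0.14 in *lin-29* mutants, against 0.19 as deposited, a shift of over 0.1.

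**Figure D5:**
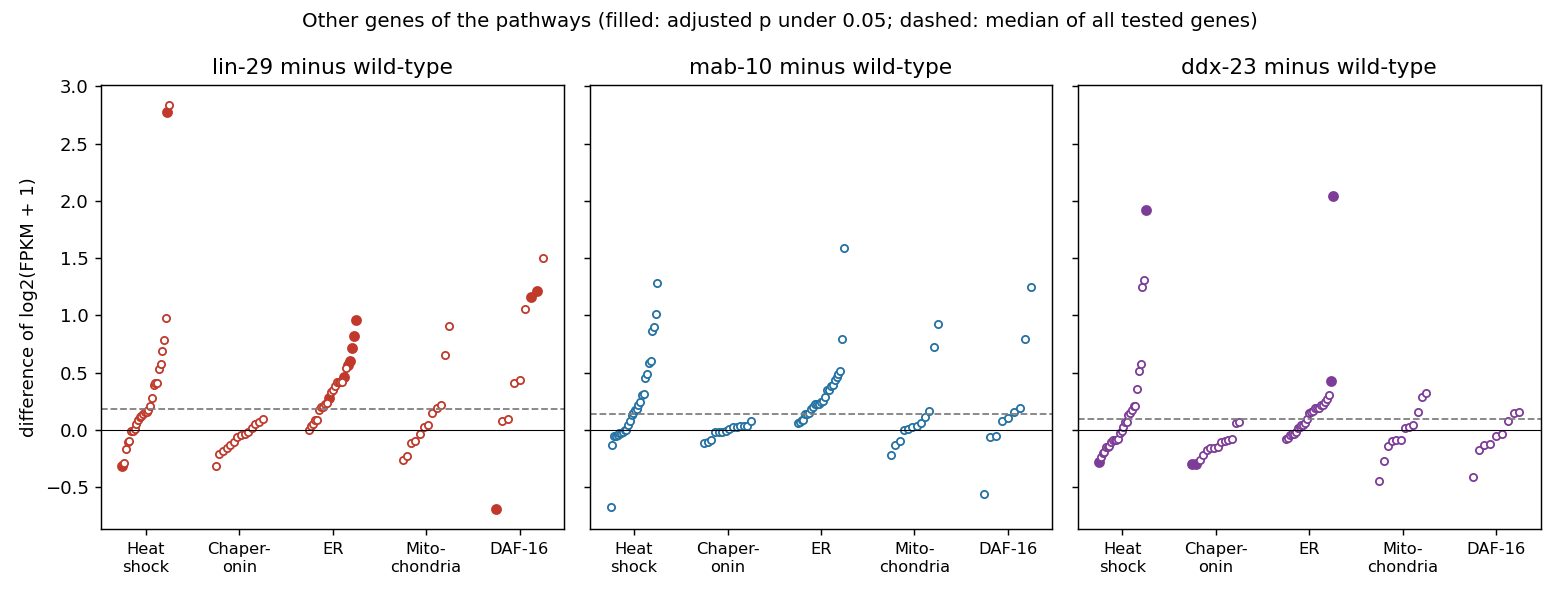
Differences from wild-type in log2(FPKM + 1) of the other genes of 5 lists in each mutant, 1 point a gene, with a dashed line at the median of all tested genes. As deposited, the 25 ER genes are all above 0 in *lin-29* as in *mab-10* mutants (20 and 23 of them under quantile normalization, 19 and 18 under median-ratio scaling), and the highest heat shock points in *lin-29* mutants are *F44E5.4* and *F44E5.5*.

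Of 12 other genes of the mitochondrial response 0 were called in any mutant, and the chaperonin *hsp-60* was nearest in *ddx-23* mutants, at −0.44 (limma adjusted p = 0.0511). Of 9 tested genes on a list of *daf-16* and its targets, 2 rose and 1 fell in *lin-29* mutants, where 16.3% and 2.73% of all tested genes did: the catalase genes *ctl-2* (1.21) and *ctl-1* (1.16), close copies of each other, rose and the metallothionein gene *mtl-2* fell (−0.69) in *lin-29* mutants, with 0 called in the other mutants. The *mtl-2* call was lost without *lin-29* 2 or wild-type 1 or 2 (adjusted p 0.0613 to 0.0786). *sod-3*, the usual DAF-16 readout, was not called in any mutant.

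The genes whose levels across the 12 libraries were most like *hsp-16.2* were *hsp-16.41* (Pearson r = 0.976), *egl-26* (0.956), *Y7A9D.1* (0.956), *Y65A5A.1* (0.949) and *cutl-16* (0.942). Those most like *hsp-70* were *dnj-24* (0.936), *fmo-4* (0.934), *tent-5* (0.929), *C35A11.2* (0.924) and *C27A2.12* (0.924), and those most like *hsp-4* were *F21F3.6* (0.955), *D1086.2* (0.921), *C25E10.12* (0.918), *tbc-6* (0.915) and *F59B10.4* (0.913). These correlations are descriptions over libraries that share genotype and series.

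The animals also differed in tissue markers, and fewer cells of a type and less RNA per cell cannot be told apart in whole animals. In *lin-29* mutants 5 of 13 oocyte and yolk genes fell, all vitellogenins, where 2.73% of all tested genes did. There 4 of 7 intestine markers rose, where 16.3% of all tested genes did. In *ddx-23* mutants 2 of 7 intestine markers fell, where 1.46% of all tested genes did. Oocyte and yolk genes summed to 11798 to 13922 FPKM in *lin-29*, 16509 to 22333 in *mab-10*, 20970 to 22074 in *ddx-23* mutants and 22712 to 27518 in wild-type. Intestine markers summed to 4694 to 5461, 2809 to 2934, 2407 to 2609 and 3241 to 3560 FPKM in the same order. Sperm markers summed to 392.2 to 542 FPKM in *lin-29* mutants, 132 to 258 in *mab-10* mutants, 297 to 546 in *ddx-23* mutants and 199 to 303 in wild-type. The part of these shifts in the chaperone differences was not tested.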

How the data were processed

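Total RNA of 12 libraries was sequenced on an Illumina instrument. The authors aligned reads to ws258/WBcel235 (STAR 2.5.3a), quantified genes (RSEM 1.3.0) and deposited log2(FPKM + 1). The study's own test needs counts, so limma 3.58.1 (R 4.3.3) with trend and robust options was fitted to the deposited log2 values of the 14199 genes that reached an FPKM of 1 in 3 or more libraries, with 4 genotypes in one model, 8 residual degrees of freedom and Benjamini-Hochberg adjustment. The code was tested on simulated data. Depth is unknown from these values; 26789 genes were at 0 throughout and 0 columns were left unused. Sequences were not used here. Python 3.11.15, pandas 2.3.3 and matplotlib 3.10.9 served for tables and plots, and the Ensembl annotation of WBcel235 gave positions. The named genes were all members, up to 4 called genes with the largest difference per list and comparison, and the 5 genes most like *hsp-16.2*, *hsp-70* and *hsp-4*; *hsp-60*, *sod-3*, *hsf-1* and *F44E5.4* were named after their values were seen. The members and lists (5 of pathway genes, 7 of tissue markers) were chosen with earlier results of these data known. The labels call the libraries biological replicates. The 25 alternatives covered scaling, pseudocount, filter, model, replicate block, library series, summed copies and each library left out.

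Of the marker lists not described above, 0 of 4 tested embryo markers were called in any mutant, body muscle markers had 1 and 2 called higher in *lin-29* and *ddx-23* mutants, neuron markers had 1 higher in *lin-29* mutants, and hypodermis markers had 3 higher and 1 lower in *lin-29* mutants, with 1 higher in each of *mab-10* and *ddx-23* mutants.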

Additional observations from a re-analysis of the deposited data

Results flagged for a closer look

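The difference of a mutant from wild-type was of unlike size in the library series for 2 *hsp-16* genes, and passed the threshold for an interaction term in limma over the 9 libraries of *lin-29*, *mab-10* and wild-type animals. *hsp-16.11* minus wild-type in *mab-10* mutants was 4.03 log2 units in the earlier series and −0.44 in the later one, a change of −4.47. *hsp-16.49* in *mab-10* mutants was 3.66 and −0.06, a change of −3.72. *hsp-16.11* in *lin-29* mutants was 2.31 and 0.36, a change of −1.96. Both genes are copies that could not be measured apart, and the interaction term is not given for the summed copies. In the later series *hsp-16.49* took 99.2% of its pair in *mab-10* 2, and 50% in *mab-10* 3 and wild-type 3. Over all tested genes this term was called for 4.36% in *lin-29* and 3.14% in *mab-10* mutants. The earlier series held 1 library of each mutant and the later one 1 wild-type library, and the division was made with the values in view, so the term cannot tell a change between the series from the value of a single library, and no p is given.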

How the results depend on the processing

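Of the 8 calls among 72 differences of the 12 genes, those of *hsp-16.41* between *lin-29* or *mab-10* and *ddx-23* mutants held under all 24 alternatives fitted (adjusted p at most 0.0474 and 0.0133). The replicate numbers did not pair the libraries (r of deviations −0.30 to 0.46 over 18 same-numbered pairs, 8 over 0.1), and with a replicate block *hsp-16.11* for *lin-29* minus *ddx-23* (adjusted p = 0.0535) and *hsp-16.49* for *mab-10* minus *ddx-23* (adjusted p = 0.0551) lost their calls and *hsp-6* for *lin-29* minus *ddx-23* (adjusted p = 0.0343) gained one. *hsp-4* in *ddx-23* mutants was not called under quantile normalization (adjusted p = 0.0591), in two-group fits (0.0846) or without the trend and robust options (0.0512), which left 0 genes called higher there. With the series in the model, 1 gene was higher in *lin-29* mutants, 2 in *ddx-23* mutants, and 1 higher and 1 lower for both *lin-29* and *mab-10* minus *ddx-23*. Within the earlier series the *lin-29* comparison had 3 higher and 1 lower, that of *mab-10* 5 higher, that of *ddx-23* 3 higher and 1 lower, 1 higher and 2 lower for *lin-29* minus *mab-10*, 4 higher and 1 lower for *lin-29* minus *ddx-23* and 5 higher for *mab-10* minus *ddx-23*; within the later series 2 were higher for *lin-29* minus *mab-10*. Quantile normalization and median-ratio scaling each called 1 gene lower in *ddx-23* mutants (*hsp-16.41*, adjusted p = 0.0418 and 0.0461), median-ratio scaling called 4 higher and 1 lower for *lin-29* minus *ddx-23*, and two-group fits called 5 higher for *mab-10* minus *ddx-23*. Without wild-type 3 and *mab-10* 1 together, 6 were higher in each of *lin-29* and *mab-10* mutants, where 4485 and 4259 of all tested genes were. That alternative was added after the data were seen, like the summed copies and the interaction. It also gave 5 higher for *mab-10* minus *ddx-23*, and 6 higher and 1 lower for *lin-29* minus *ddx-23*. Counts with no share of all tested genes beside them cannot be read as particular to the chaperone genes. Leaving out each library in turn gave 0 to 6 higher in *lin-29*, 0 to 5 in *mab-10* and 0 to 1 in *ddx-23* mutants, 0 to 1 lower in *ddx-23* mutants, 0 to 1 higher for *lin-29* minus *mab-10*, 1 to 7 higher and 0 to 1 lower for *lin-29* minus *ddx-23*, and 1 to 4 higher and 0 to 1 lower for *mab-10* minus *ddx-23*; the cause was not tested. None of the 8 calls changed sign under an alternative. *hsp-16.48* in *mab-10* mutants was −0.06 and not called in the main fit, and 3.66 within the earlier series. *hsp-16.11* in *lin-29* minus *mab-10* was −0.04 and not called in the main fit, and 0.80 within the later series. Another 102 of 1746 refitted differences changed sign where neither fit made a call. ER genes called higher ranged from 2 to 19 in *lin-29*, 0 to 18 in *mab-10* and 0 to 13 in *ddx-23* mutants. Among all tested genes, calls higher ranged from 1376 to 4485 in *lin-29* and from 16 to 4259 in *mab-10* mutants. For both mutants the highest ER and all-gene counts came without wild-type 3 and *mab-10* 1 together. In *ddx-23* mutants both counts were highest within the earlier series. The ER counts thus peaked where calls peaked over the whole table. Over all genes, the share of calls that were higher was 85.7% for *lin-29* (41.5% under quantile normalization, 61.6% under median-ratio scaling). It was 81.7% for *mab-10* (57.9% and 72.3%) and 83.1% for *ddx-23* (51.4% and 67.2%).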
